A study of Mus musculus with 4 samples.

Results

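The Slc25 genes encode the mitochondrial carriers, and their promoters were examined for H3K4me3, trimethylation of lysine 4 of histone H3, a mark of promoters, in mouse gastrocnemius, the large muscle of the calf. Members were all protein-coding genes whose symbol in the GENCODE annotation of the mm10 genome is Slc25a followed by a number, which gave 47 genes out of 21755 protein-coding ones (autosomes and the X chromosome). Chromatin immunoprecipitation followed by sequencing (ChIP-seq) had been done on tissue of B6CASTF1/J mice, first-generation hybrids of C57BL/6J and CAST/EiJ, all of them adult females aged 2 months. The 4 libraries came from 2 pools, E and F, each made of 2 biosamples and sequenced as 2 technical libraries. No treatment, other genotype, sex, age or tissue was present, so the pools are set beside each other, and the family beside all protein-coding genes. Pools hide the spread between animals, and each pool gave 1 value per gene, so no p-value is given. Gastrocnemius is a bulk tissue, and a peak may come from any of its cell types. A peak carried by few cells and a weak peak carried by many cells cannot be told apart.

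Mitochondrial carriers are small proteins of the inner mitochondrial membrane that exchange nucleotides, phosphate, carboxylates, amino acids and cofactors between the matrix and the cytosol. They are encoded in the nucleus, made in the cytosol and brought into the inner membrane by a dedicated import route. In skeletal muscle the best known members are the ADP/ATP carrier, which sends newly made ATP out to the contracting fibres, the phosphate carrier, and the carnitine/acylcarnitine carrier, which brings in fatty acids for oxidation.

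A gene counted as marked if any of its transcription start sites (TSSs) had a deposited peak at most 1000 bp away. Its signal value is the highest value the authors gave to those peaks. The sources do not say against what it was scaled, and it is used to order genes within a list. It is also set side by side, and as a ratio, between the pool lists. There a difference in scale between the lists cannot be told apart from a difference between the pools. Peaks at most 1000 bp apart were joined into domains, and the width of a gene is that of its widest domain near a TSS. The main list is that of the replicated peaks of both pools. Peak lists carry no counts of reads, and the depth is unknown.

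Of the 47 Slc25 genes, 41 (87.2%) were marked in the replicated list, against 69.3% of all protein-coding genes. The same 41 were marked in pool E and in pool F, where the shares of all genes were 69.3% and 68.9%. No member was marked in 1 pool only. That was rare among all genes too, of which 15066 were marked in pool E, 14984 in pool F and 14930 in both. In the replicated list a peak covered a TSS of all 41 marked members, and the closest of the 6 unmarked members lay 3805 bp from a peak, so the window of 1000 bp decided no member. The unmarked members were Slc25a2, Slc25a18, Slc25a31, Slc25a37, Slc25a41 and Slc25a54. Each has a marked close relative. Slc25a2 is paired with marked Slc25a15, Slc25a18 with Slc25a22, and Slc25a37 with Slc25a28. Slc25a31 belongs with marked Slc25a4 and Slc25a5, and Slc25a41 and Slc25a54 with marked Slc25a23, Slc25a24 and Slc25a25.

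The signal value of the marked members had a median of 50.2 in the replicated list (all marked genes 45.2), 52.5 in pool E (48.9) and 46.1 in pool F (42.9). Their domain width had a median of 2518 bp in the replicated list (all marked genes 2400 bp), 2545 bp in pool E (2451.5 bp) and 2263 bp in pool F (2314 bp). By signal value, 11 of the 41 stood above the upper quartile of all marked genes and 5 below the lower quartile. By width, 12 stood above the upper quartile and 8 below the lower. By signal value the marked members lay between percentile 8.70 (Slc25a48) and percentile 93.8 (Slc25a16 and Slc25a51) of all marked genes.

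**Figure D1:**
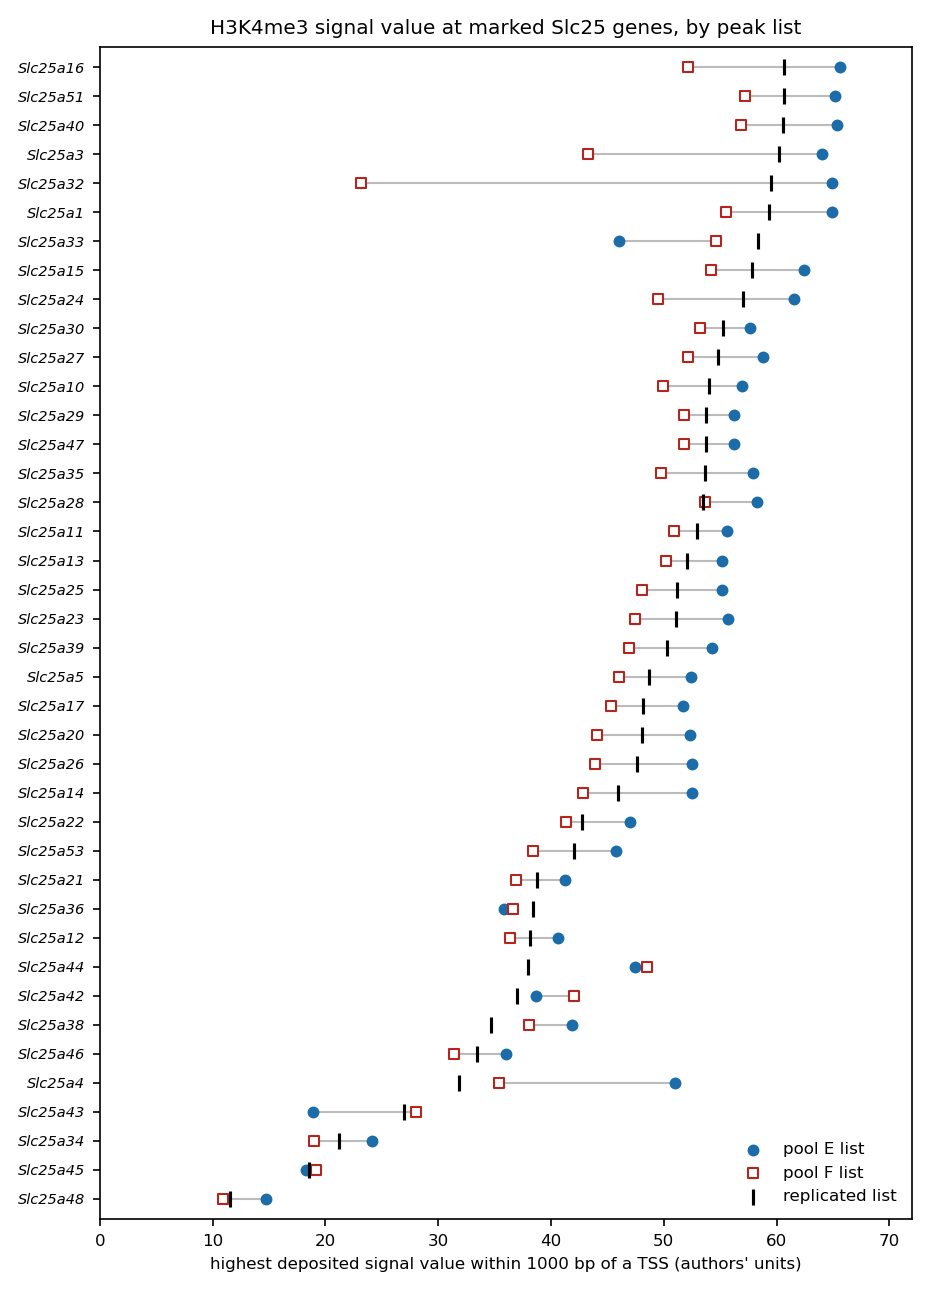
Signal value (horizontal axis, authors' units) of 40 marked Slc25 genes in the list of pool E (filled circles), the list of pool F (open squares) and the replicated list (black ticks), ordered by the replicated list. Slc25a16 stands at the top with 60.7 and Slc25a48 at the bottom with 11.5, and the widest gap between pools is that of Slc25a32.

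Stretches of 200 bases directly before the start of 8 members are printed because these members carry the contrasts between marked and unmarked relatives and between promoters with many and few CpG dinucleotides. They are from RefSeq's GRCm38.p6 assembly, the same build as mm10, read 5′ to 3′ on the strand of the gene, with each CpG dinucleotide in capitals. The start is the most upstream of the RefSeq start and the GENCODE TSSs near it. The first 3 are the ADP/ATP carriers of muscle (Slc25a4), of most tissues (Slc25a5) and of male germ cells (Slc25a31, unmarked).
Slc25a4, chr8:46211285-46211484, minus strand: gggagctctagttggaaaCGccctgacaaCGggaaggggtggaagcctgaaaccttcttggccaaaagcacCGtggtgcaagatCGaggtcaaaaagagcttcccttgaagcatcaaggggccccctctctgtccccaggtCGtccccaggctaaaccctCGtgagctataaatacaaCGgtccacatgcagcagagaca
Slc25a5, chrX:36795397-36795596, plus strand: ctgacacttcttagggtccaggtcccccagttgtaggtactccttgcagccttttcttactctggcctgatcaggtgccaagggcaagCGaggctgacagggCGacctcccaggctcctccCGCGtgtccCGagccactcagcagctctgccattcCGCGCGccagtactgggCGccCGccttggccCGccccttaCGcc
Slc25a31, chr3:40708655-40708854, plus strand: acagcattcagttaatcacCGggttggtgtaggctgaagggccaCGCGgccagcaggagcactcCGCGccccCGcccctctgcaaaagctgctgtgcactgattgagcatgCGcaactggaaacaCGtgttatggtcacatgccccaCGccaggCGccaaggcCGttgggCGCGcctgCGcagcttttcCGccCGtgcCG
The next 2 are the neighbours Slc25a29 and Slc25a47, at the TSS of a protein-coding transcript of each.
Slc25a29, chr12:108835884-108836083, minus strand: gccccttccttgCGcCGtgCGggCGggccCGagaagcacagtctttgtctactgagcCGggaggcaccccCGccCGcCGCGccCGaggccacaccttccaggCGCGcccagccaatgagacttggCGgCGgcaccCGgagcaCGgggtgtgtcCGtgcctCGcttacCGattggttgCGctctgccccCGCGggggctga
Slc25a47, chr12:108850929-108851128, plus strand: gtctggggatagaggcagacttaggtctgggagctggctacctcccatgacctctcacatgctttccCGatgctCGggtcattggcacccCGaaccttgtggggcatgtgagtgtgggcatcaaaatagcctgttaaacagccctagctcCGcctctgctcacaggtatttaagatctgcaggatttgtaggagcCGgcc
The next 2 are the neighbours Slc25a24 (marked) and Slc25a54 (unmarked), and the last is Slc25a34, which was marked and has few CpG dinucleotides.
Slc25a24, chr3:109122949-109123148, plus strand: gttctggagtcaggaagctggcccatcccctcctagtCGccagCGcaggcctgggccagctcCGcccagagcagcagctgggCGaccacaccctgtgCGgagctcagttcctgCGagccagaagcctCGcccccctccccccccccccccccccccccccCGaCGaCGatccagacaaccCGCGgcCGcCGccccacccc
Slc25a54, chr3:109080269-109080468, plus strand: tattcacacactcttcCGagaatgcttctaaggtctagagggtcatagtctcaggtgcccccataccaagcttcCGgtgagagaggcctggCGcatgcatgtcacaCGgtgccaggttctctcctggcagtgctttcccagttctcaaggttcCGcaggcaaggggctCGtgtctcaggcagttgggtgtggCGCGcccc
Slc25a34, chr4:141623835-141624034, minus strand: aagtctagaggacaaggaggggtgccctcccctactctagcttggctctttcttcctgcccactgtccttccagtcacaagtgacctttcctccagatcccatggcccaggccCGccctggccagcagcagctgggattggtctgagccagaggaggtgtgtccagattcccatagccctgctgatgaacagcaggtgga

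The stretches differed in their CpG content. Unmarked Slc25a31 has 17 CpG dinucleotides, more than marked Slc25a5 with 12 and marked Slc25a4 with 7. Marked Slc25a29 has 23, marked Slc25a24 14, unmarked Slc25a54 8 and marked Slc25a34 1. The stretch before the protein-coding transcript of Slc25a47 has 5. The median over the same stretch before all 32619 RefSeq starts is 5. The TATA box letters TATAAA occur in 1 of the 8 stretches, that of Slc25a4, on its own strand 33 bases before the start. In the windows of 250 bases before and 50 bases after RefSeq starts these letters occur, on either strand, in 4.35% of 46 windows of 36 members and in 13.7% of all windows. The RefSeq start of Slc25a4 lies 222 bases downstream of the start used here, so most of its printed stretch is outside that window. Its count of 7 CpG dinucleotides depends on that choice of start. In windows of 1000 bp at TSSs its highest ratio of observed to expected CpG was 0.833, against 0.754 for Slc25a31.

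Other motifs were looked for in the windows at RefSeq starts on both strands. CCAAT occurs in 47.8% of the members' windows and in 37.6% of all windows, among them those of Slc25a1, Slc25a4, Slc25a11 and Slc25a29. The ETS letters CCGGAAGT occur in 2.17% of the members' windows, only in Slc25a20, and in 3.91% of all. The E-box CAGCTG, the form bound by myogenic factors, occurs in 10.9% of the members' windows (Slc25a11, Slc25a24, Slc25a34 and Slc25a53) and in 16.4% of all. None of the 46 windows holds the NRF1 letters GCGCATGCG (1.75% of all windows), the oestrogen-related receptor letters TCAAGGTCA (0.426%) or the MEF2 letters CTAAAAATA (0.521%) and CTATTTATA (0.432%). These letters describe only the windows searched.

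The 6 unmarked members held both promoters poor and promoters rich in CpG dinucleotides. Genes were classed by windows of 1000 bp at their TSSs. The CpG ratio is the observed over the expected number of CpG dinucleotides. A gene was high where some window reached a ratio of 0.75 with 55% GC or more, low where no window reached 0.48, and intermediate otherwise. In the high class 18 of 20 members were marked, against 99.3% of all genes of that class. In the intermediate class all 20 members were marked, against 93.9% of all. In the low class 3 of 7 were marked (Slc25a17, Slc25a34 and Slc25a45), against 25.2% of all. Unmarked Slc25a2, Slc25a18, Slc25a41 and Slc25a54 belong to the low class, with highest ratios of 0.455, 0.208, 0.24 and 0.403. Unmarked Slc25a31 and Slc25a37 belong to the high class with 0.754 and 0.751, just past its limit, and are 2 of only 46 unmarked genes among the 6844 of that class. Slc25a37 lies in an exact repeat, described below, where reads cannot be placed uniquely. With windows of 500 bp Slc25a2, Slc25a54 and marked Slc25a17 were intermediate, and marked Slc25a21 was low. The marked members were then 23 of 25 in the high, 15 of 17 in the intermediate and 3 of 5 in the low class. Among marked members in the classes by 1000 bp, the median signal value was 53.6 in the high class (all genes 51.6), 47.8 in the intermediate class (43.6) and 21.2 in the low class (18.6).

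**Figure D2:**
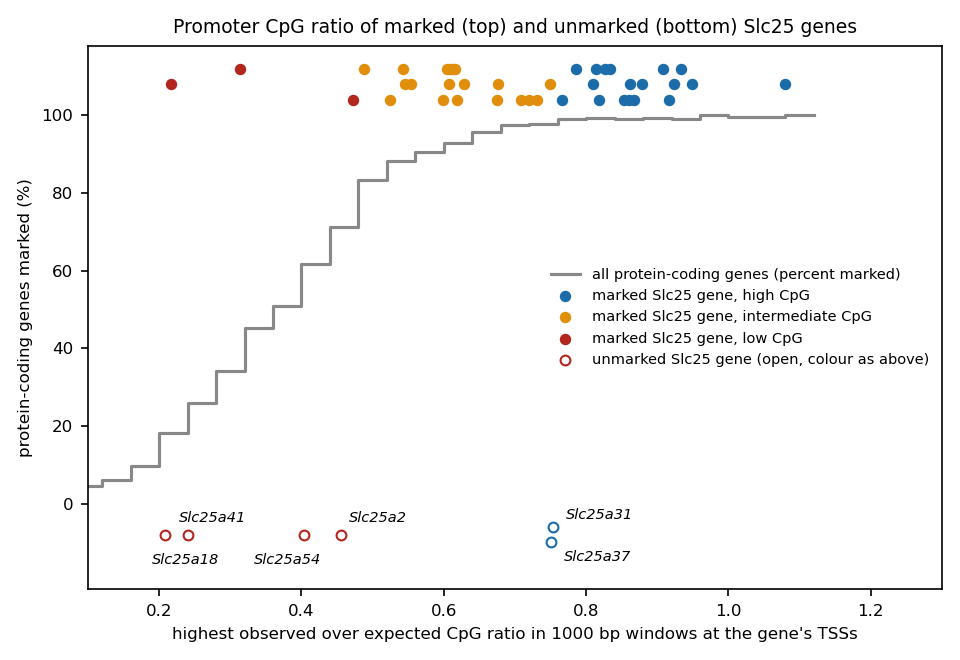
The highest CpG ratio at any TSS of 46 Slc25 genes (horizontal axis, observed over expected), with marked genes as filled points above and unmarked genes as open points below, coloured by CpG class. Their height within a row has no meaning. The grey line is the percentage of all protein-coding genes marked in each bin of the ratio (vertical axis). Unmarked Slc25a31 and Slc25a37 stand near 0.75, where nearly all genes are marked, and the other 4 unmarked members have ratios under 0.48. Slc25a37 lies in an exact repeat, where reads cannot be placed uniquely.

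The ADP/ATP carriers had 1 broad, 1 ordinary and 1 absent domain. Slc25a4, whose protein is the main ADP/ATP carrier of heart and skeletal muscle, lay under a single peak of 6792 bp, the third widest domain of the family in the replicated list. The peak measured 6352 bp in the pool E list and 6060 bp in that of pool F. The replicated peak, on chromosome 8 from 46205842 to 46212633, covered 100% of the gene, which is 4488 bp long, and extended 1349 bp upstream of its most upstream TSS. It held 2353 bp of exon, 2135 bp of intron and 2304 bp outside the gene. Its signal value was 51.0 in pool E, 35.4 in pool F and 31.9 in the replicated list. In the replicated list Slc25a4 therefore ranked 3 by width and 36 by signal value among the 41, at percentile 94.2 of all marked genes by width and 25.2 by signal value. By signal value it ranked 26 in pool E and 35 in pool F, and by width 5 and 4. It was the only marked member with over 90% of its body covered.

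Slc25a5, the widely expressed ADP/ATP carrier on the X chromosome, had signal values of 52.4 in pool E, 46.1 in pool F and 48.7 in the replicated list. Its domain was 2568 bp wide and covered 68.2% of the gene. Slc25a31, the carrier of male germ cells, had no peak nearer than 26109 bp, and that peak had a signal value of 5.74. The 4 marker genes of male germ cells (Ddx4, Mael, Sycp3 and Prm1) were unmarked too. All animals were female, so male germ cells could not be present and these markers decide nothing. Why Slc25a31 was unmarked was not tested. The phosphate carrier gene Slc25a3, which supplies ATP synthase with phosphate, had a signal value of 64.1 in pool E, 43.3 in pool F and 60.2 in the replicated list. It ranked 4 by signal value and 9 by width (3882 bp) in the replicated list, but 26 by signal value in pool F.

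The carriers that exchange ATP-Mg for phosphate, some of which are regulated by calcium, were marked in 3 of 5 genes, against 69.3% of all protein-coding genes. Slc25a25 had a domain of 10082 bp in pool E, 9970 bp in pool F and 9949 bp in the replicated list. It ranked 2 by width in pool E and in the replicated list and 1 in pool F. It was 1 of 3 members with more than 1 marked domain, a state found in 13.7% of all marked genes. Its widest domain, on chromosome 2 from 32415228 to 32425176, covered 5 internal TSSs and had a signal value of 51.1. A domain of 1409 bp with a signal value of 29.0 covered 5 further TSSs, and the upstream domain of 3827 bp with a signal value of 41.7 covered 2, and there a TSS of Naif1 too. The CpG ratio was highest at the upstream TSSs (1.08), while the windows of TSSs in the widest domain had ratios between 0.149 and 0.276.

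Slc25a24 and Slc25a23, the other marked genes of that group, each stand beside an unmarked relative. Slc25a24 had a signal value of 61.5 in pool E, 49.5 in pool F and 57.0 in the replicated list. Its neighbour on chromosome 3, Slc25a54, ends 6461 bp away and was unmarked. The peak nearest to Slc25a54 in the replicated list lay 28699 bp away with a signal value of 2.14. In pool E it lay 20329 bp away, and in pool F it was that of Slc25a24, 41819 bp away. Slc25a23 had a signal value of 55.7 in pool E, 47.5 in pool F and 51.1 in the replicated list, and shared its domain with Crb3. Its neighbour on chromosome 17, Slc25a41, begins 2056 bp past the end of Slc25a23 and was unmarked. The nearest peak lay 8874 bp from its start, at Khsrp, with a signal value of 21.8.

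Among the 12 carriers of carboxylates and amino acids, 10 were marked, against 69.3% of all protein-coding genes. The median signal value of these 10 was 47.4. The aspartate/glutamate carriers, part of the malate-aspartate shuttle, differed in shape. Slc25a12, the form of muscle and brain, had a domain of 4496 bp with signal values of 40.6 in pool E, 36.3 in pool F and 38.2 in the replicated list. Slc25a13, the form of liver, had a domain of 1230 bp, rank 38 of 41 by width, but signal values of 55.1 in pool E, 50.2 in pool F and 52.0 in the replicated list. In all 3 lists Slc25a12 was thus wider and Slc25a13 had the higher signal value. Slc25a12 also had 2 weak domains at internal TSSs of non-coding transcripts, with signal values of 3.82 and 2.92.

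Slc25a11, the oxoglutarate carrier of the same shuttle, had the widest domain of the family in the replicated list, 17986 bp, on chromosome 11 from 70645151 to 70663136. That width belongs to a stretch of 5 joined peaks that also held TSSs of Eno3, the muscle enolase gene, Pfn1, the profilin gene, and Rnf167. In pool E the domain measured 18193 bp, against 3993 bp in pool F. Without joining, its peak in the replicated list was 4603 bp wide. Its signal value, 52.9, was ordinary. Slc25a22, a glutamate carrier gene, had a domain of 5767 bp made of 3 peaks over 70.1% of its body, with 21 of its 24 TSSs under a peak. Its relative Slc25a18 was unmarked, with the nearest peak 46425 bp away and a signal value of 3.93.

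The citrate carrier gene Slc25a1 ranked 6 by signal value, with 65.0 in pool E, 55.5 in pool F and 59.4 in the replicated list. The ornithine carrier gene Slc25a15 ranked 8, with 62.4, 54.2 and 57.8 in the same lists. Its relative Slc25a2, a gene of 1369 bp with 1 TSS, was unmarked. A strong peak with a signal value of 55.5 lay 3805 bp from it, at Taf7. The dicarboxylate carrier gene Slc25a10 had a signal value of 54.0 and a width of 2183 bp. Slc25a44, a carrier of branched-chain amino acids, had 47.4 in pool E and 48.5 in pool F, but 37.9 in the replicated list. Slc25a38, a glycine carrier for haem synthesis, had 34.7 and a narrow domain of 1458 bp. Slc25a21, the oxoadipate carrier, had 38.8 over 1168 bp. In pool F its closest TSS lay 7 bp outside the peak, while the other 40 marked members had a TSS under a peak there.

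The carnitine carrier and its relatives had signal values from 11.5, the lowest of the family, to 53.7 in the replicated list. The highest of the family was 60.7. Slc25a20, the carnitine/acylcarnitine carrier, had signal values of 52.3 in pool E, 44.1 in pool F and 48.0 in the replicated list, with a width of 2193 bp. Slc25a29, a carrier of basic amino acids, had 56.2 in pool E, 51.8 in pool F and 53.7 in the replicated list. Its domain of 6515 bp, rank 4 by width, was a single peak on chromosome 12 from 108832028 to 108838542. Slc25a47, a liver-enriched relative, starts 163 bp away on the other strand and lay in the same peak, so it had the same values. Only 3 TSSs of its non-coding transcripts, 108836046, 108836082 and 108837064, lay under that peak. The start of its protein-coding transcript, 108851129, printed above with 5 CpG dinucleotides, lay 8261 bp from the nearest peak, which had a signal value of 3.17. With TSSs of protein-coding transcripts only, or with RefSeq starts, Slc25a47 was unmarked and 40 members were marked. Hepatocyte markers (Alb, Ahsg, Apoa2 and Cps1) were unmarked in the replicated list. Why the protein-coding transcript of Slc25a47 had no peak at its start was not tested.

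Slc25a45 and Slc25a48, the remaining genes of that branch, had the lowest signal values of the family in the replicated list. Slc25a48 had 14.8 in pool E, 10.9 in pool F and 11.5 in the replicated list. Its domain of 1003 bp was also the narrowest, and it ranked last by both measures in all 3 lists. Slc25a45 had 18.3 in pool E, 19.2 in pool F and 18.6 in the replicated list, over 1855 bp. With a TSS window of 2500 bp its signal value was 33.2, and with a joining gap of 2500 bp its width was 5286 bp. Across all marked genes Slc25a48 stood at percentile 8.70 and Slc25a45 at 13.4 by signal value.

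All 9 carriers of cofactors and nucleotides were marked. All of them except Slc25a17 belong to the high or intermediate CpG class, of which 99.3% and 93.9% of all genes were marked. By signal value 4 of the 9 stood in the top 8 of the family in the replicated list and 3 in the top 8 of each pool. Slc25a16, linked to coenzyme A, had 65.6 in pool E, 52.1 in pool F and 60.7 in the replicated list. Slc25a51, the carrier of NAD, had 65.2 in pool E, 57.2 in pool F and 60.7 in the replicated list. Both stood at percentile 93.8 of all marked genes. Slc25a33, a pyrimidine nucleotide carrier, had 46.0 in pool E, 54.7 in pool F and 58.3 in the replicated list, while its relative Slc25a36 had 35.8, 36.7 and 38.4 over a wider domain of 3421 bp. Slc25a32, a folate and flavin carrier that shares its domain with Dcaf13, had 65.0 in pool E, 23.1 in pool F and 59.5 in the replicated list. It ranked 5 there and in pool E but 38 in pool F, and Slc25a33 ranked 29 in pool E, 4 in pool F and 7 in the replicated list.

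Further cofactor carriers had signal values below the family median. Slc25a42, a coenzyme A carrier, had 37.0 over 3559 bp. Slc25a26, which brings in S-adenosylmethionine, had 47.6 over 1615 bp. Slc25a17, a carrier of peroxisomes, had 48.2 over 2989 bp, at percentile 91.4 of low CpG genes by signal value.

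Of the iron and glutathione carriers, 3 of 4 were marked, against 69.3% of all protein-coding genes. Slc25a40 and Slc25a39, the glutathione carriers, had signal values of 60.6 and 50.2 and widths of 2518 and 3263 bp. Slc25a40 ranked 3, with 65.4 in pool E and 56.9 in pool F, and shared its domain with Dbf4. Slc25a28, mitoferrin-2, an iron carrier of most tissues, had 58.2 in pool E, 53.6 in pool F and 53.4 in the replicated list. Slc25a37, mitoferrin-1, the iron carrier of developing red cells, was unmarked, and its nearest peak lay 93979 bp away.

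Slc25a37 also stood apart in its place in the assembly. All 3 of its TSS windows lie in an exact repeat of 125815 bp on chromosome 14, and 100% of the 32-base words in these windows occur elsewhere. The copy of its most upstream TSS, 69285112, lies at 69503362, and no peak lay within 111836 bp of the copy. Among the other members the highest share of such words in any window was 45.2%, in marked Slc25a5. Reads from an exact repeat cannot be placed uniquely, and their treatment by the authors is not given in the sources used here. Whether the repeat had a part in the missing peak was not tested.

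The uncoupling-protein relatives Slc25a14, Slc25a27 and Slc25a30 were all marked, with signal values of 45.9, 54.8 and 55.2. Slc25a27 shared its domain of 3662 bp with Cyp39a1. The members without a firmly known substrate were marked too. For comparison, 69.3% of all protein-coding genes were marked. Slc25a35 had 53.6 over 3874 bp. In pool E the domain measured 3838 bp, against 2231 bp in pool F. In the replicated list it was 7671 bp with a joining gap of 2500 bp. Slc25a53 had 42.1 over 2033 bp. Slc25a46, a protein of the outer membrane that shapes mitochondria, had 33.4. Slc25a43 had 18.9 in pool E, 28.0 in pool F and 26.9 in the replicated list over 1058 bp, second narrowest of the family. Slc25a34 had 24.2 in pool E, 19.0 in pool F and 21.2 in the replicated list, rank 39 of 41, yet it stood at percentile 54.4 of low CpG genes. All 4 X-linked members (Slc25a5, Slc25a14, Slc25a43 and Slc25a53) were marked, against 52.6% of all X-linked genes, with a median signal value of 44.0 (all marked X-linked genes 36.8). All 4 belong to the intermediate CpG class, of which 93.9% of all genes were marked.

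Width and signal value ordered the members differently. The 8 widest were Slc25a11, Slc25a25, Slc25a4, Slc25a29, Slc25a47, Slc25a22, Slc25a12 and Slc25a23 (4141 bp). Without joining peaks, Slc25a22 measured 2944 bp and Slc25a23 2557 bp, and Slc25a25, with 8351 bp, was the widest. None of the 8 widest was among the 8 with the highest signal value, which were Slc25a16, Slc25a51, Slc25a40, Slc25a3, Slc25a32, Slc25a1, Slc25a33 and Slc25a15. Spearman's rho between signal value and width was 0.265 over the 41 marked members and 0.385 over all marked genes, as a description across genes, which are not independent replicates. At the low end the measures met in Slc25a48 and Slc25a43.

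**Figure D3:**
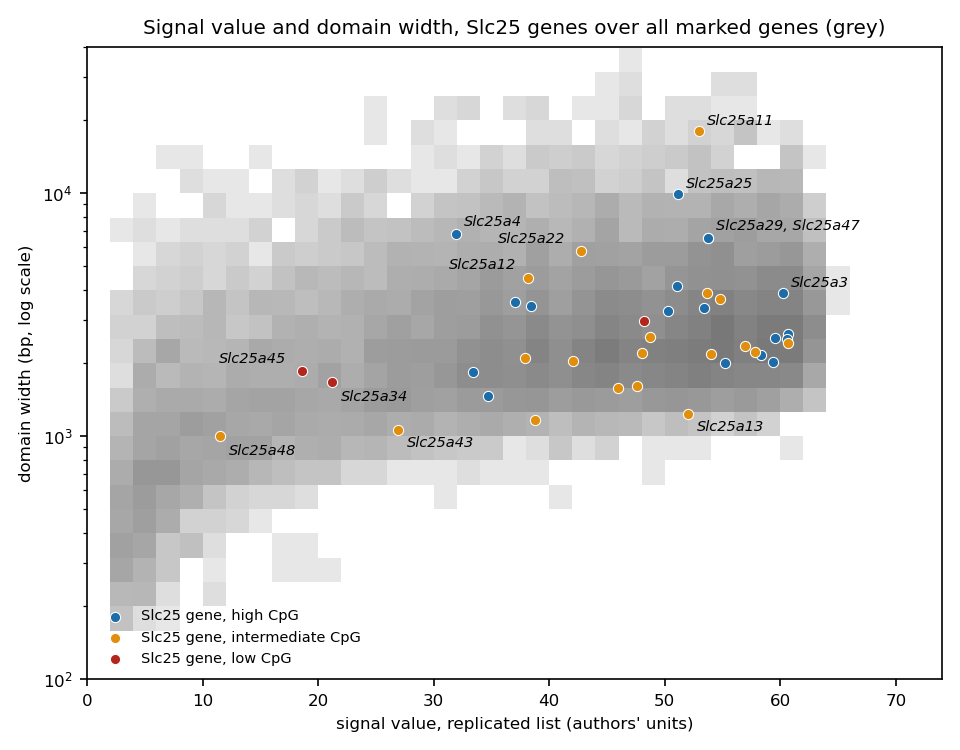
Signal value in the replicated list (horizontal axis, authors' units) and domain width (vertical axis, bp, log scale) of 40 marked Slc25 genes, coloured by CpG class. Grey squares show all marked protein-coding genes, darker where they are more numerous. Slc25a4 stands high at 6792 bp with a signal value of 31.9, Slc25a11 and Slc25a25 are the widest, and Slc25a48 lies at the lower left.

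Most domains were simple. In 35 of 41 members the domain was a single peak, and 180 of the 231 TSSs of marked members lay under a peak. The same shares over all marked genes are not given here, so these counts do not set the family apart. A total of 8 members (19.5%) shared the domain with a TSS of another protein-coding gene, as did 20.9% of all marked genes. They were Slc25a11, Slc25a23, Slc25a27, Slc25a29, Slc25a32, Slc25a40, Slc25a46 (with B930094E09Rik) and Slc25a47. The 33 alone in their domain had a median width of 2213 bp (all such genes 2259 bp). Their domains reached a median of 754 bp upstream of the most upstream TSS there and 1632 bp downstream, and the downstream side was longer in 32 of 33 members (97.0%) and in 91.5% of all such genes. Measured from the most downstream TSS, so that the distance between TSSs counts as upstream, it was longer in 22 of 33 members (66.7%) and in 67.4% of all. That second measure was added after seeing the data. Slc25a30 was the exception from the most upstream TSS, with 1044 bp upstream and 964 bp downstream. Slc25a33, Slc25a21, Slc25a34 and Slc25a22 reached at most 57 bp upstream, and Slc25a25 reached 8777 bp downstream.

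**Figure D4:**
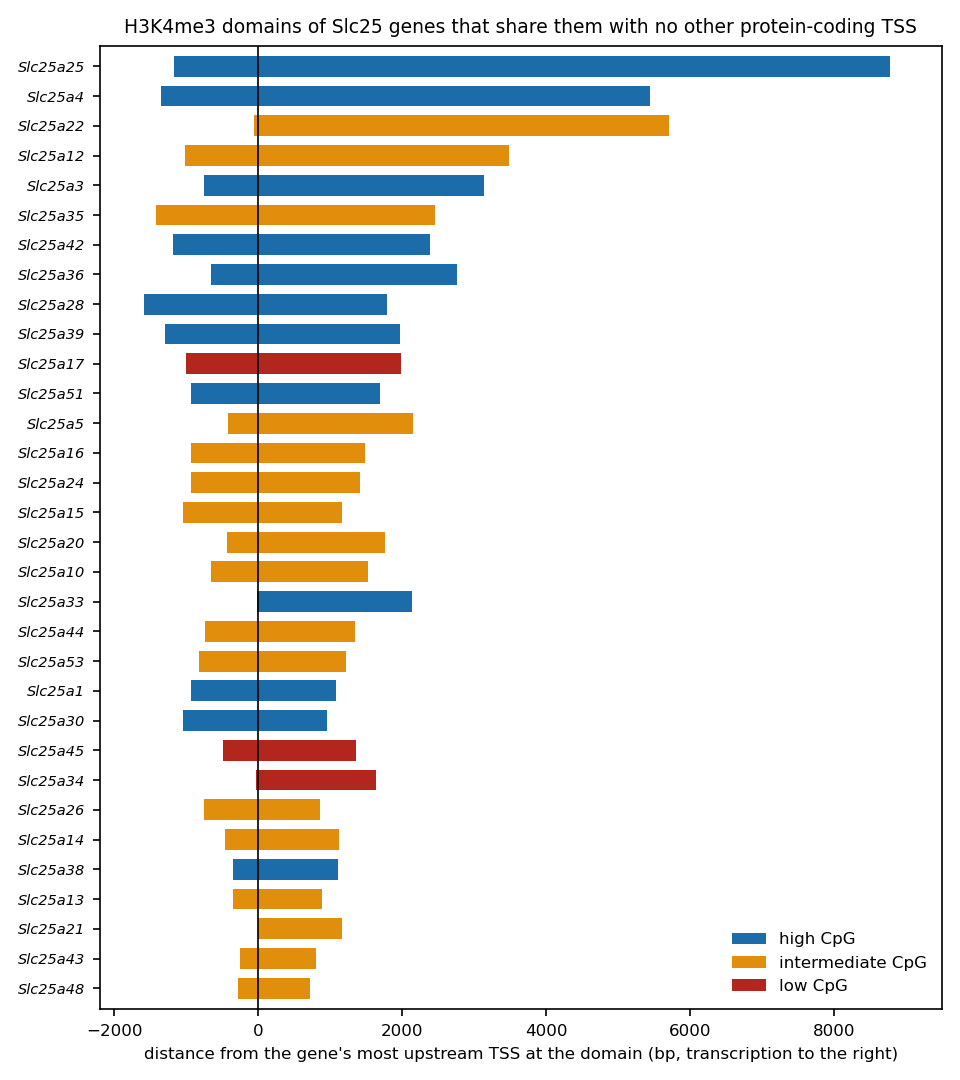
Extent of the domain of 32 marked Slc25 genes that share it with no other protein-coding TSS, in bp from the most upstream TSS in the domain (0, black line), with transcription to the right and colour for CpG class. Genes are ordered by width. The bars reach further to the right of the line than to the left in all genes except Slc25a30.

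Most members had the higher signal value in pool E, as most other genes did. With the scaling unknown, this shift may be one of the lists and not of the pools. The ratio of the signal value in pool E to that in pool F had a median of 1.14 over the 41 members and 1.16 over all genes marked in both pools. It was above 1 in 34 members and below 1 in 7, and 90.6% of all such genes had the higher value in pool E. A ratio outside 0.8 to 1.25 was found in 8 members (19.5%) and in 23.3% of all genes. Among them the ratio was highest in Slc25a32 (2.81), Slc25a3 (1.48) and Slc25a4 (1.44). It was 0.674 in Slc25a43. Further members outside that range were Slc25a48 (1.35), Slc25a34 (1.27) and Slc25a16 (1.26). The range is centred on a ratio of 1 and not on the median of all genes, 1.16. Among the ratios of all genes Slc25a34 stood at percentile 81.7 and Slc25a16 at 79.9. Inside the range, Slc25a33 (0.842) stood at percentile 2.61 and Slc25a42 (0.920) at 4.76. Spearman's rho between the pools over the members was 0.743 for the signal value and 0.947 for the width.

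Peak positions were close between the pools. The strongest peak in pool E overlapped a peak of pool F in all 41 members, and the summits of the strongest peaks lay a median of 28 bp apart. They lay over 200 bp apart in 2 members, 824 bp in Slc25a28 (ratio 1.09) and 757 bp in Slc25a32. In Slc25a32 the summit stood at 294 bp from a TSS in pool E, downstream of it, and at -463 bp in pool F, upstream and towards Dcaf13. The other 7 members with a ratio outside 0.8 to 1.25 had summits at most 200 bp apart. With 1 value per pool, none of these differences could be set against a spread between samples of a pool. Overlap and summit distance over all genes are not given here, so the closeness does not set the family apart.

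**Figure D5:**
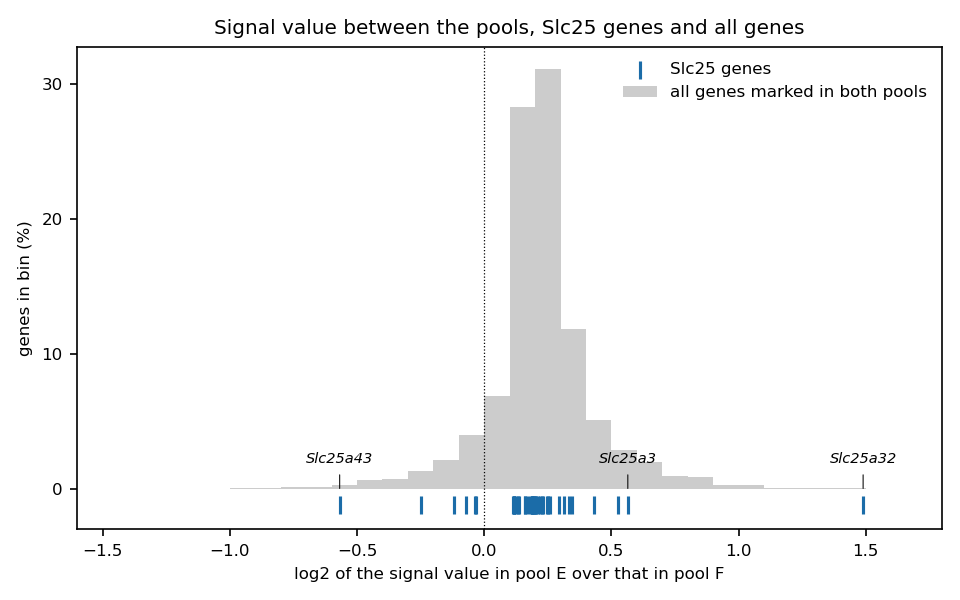
Log2 ratio of the signal value in pool E to that in pool F (horizontal axis) for 40 marked Slc25 genes (blue ticks) and for all genes marked in both pools (grey bars, percentage of genes per bin). Most ticks lie under the bulk of the bars to the right of 0, and Slc25a43 and Slc25a32 lie at the ends.

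Related genes gave a frame for these values. The members of the same protein family under other symbols, Ucp1, Ucp2, Ucp3, Mtch1 and Mtch2, were all marked. Ucp1, the uncoupling protein of brown fat, had a signal value of 3.93 over 231 bp, below every Slc25 gene that was marked, and Ucp3, the form of skeletal muscle, had 38.0 over 4770 bp. All 13 listed genes of the route that imports carriers (among them Tomm20, Tomm70a, Timm9 and Timm22) were marked, with a median signal value of 55.3. All 24 listed genes of other mitochondrial transporters (among them Vdac1, Mpc1, Mcu and Cpt1b) were marked, with a median of 46.8. Of all protein-coding genes 69.3% were marked, and 99.3% in the high and 93.9% in the intermediate CpG class. All the import genes, and the other transporters except Sfxn3 and Cpt1b, belong to these classes. Their full marking therefore does not set them apart. Markers of the tissue stood as labelled: all 10 of muscle fibres were marked, with signal values between 9.83 (Myh2) and 58.8 (Mylpf). The 4 endothelial and 4 fibroblast genes were marked too, while the 3 of heart muscle (Myh6, Nppa and Myl7) the 3 of white fat cells (Adipoq, Lep and Cfd) and the 3 of neurons (Snap25, Slc17a6 and Gad1) were unmarked in the replicated list. Cidea, listed with Ucp1 for brown fat, was marked with 39.8. Which of these cells carried the mark at a given Slc25 gene was not tested.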

How the data were processed

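H3K4me3 ChIP-seq was measured in 4 libraries from 2 pools. Per the deposited text files, the authors called peaks on the filtered alignments of each pool and of both together, with an input that is named but not described. The 2 technical libraries of a pool share 1 alignment. The read aligner, the caller of peaks and the settings are not given in the sources used here. Each deposited list on mm10 gives per peak a signal value, a −log10 q-value, a score (not used here) and a summit. The authors' signal value has no stated normalization. It was used to describe and rank within a list, and for ratios between the pool lists. Depth is unknown.

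TSSs came from GENCODE M21, and CpG ratios and sequences from RefSeq's GRCm38.p6. Marking, domains (gap 1000 bp) and CpG classes (windows of 1000 bp) were computed with Python 3.11.15 and numpy 2.4.6, and the code was tested on simulated peaks. A gene was unmarked when no peak lay within 1000 bp of a TSS. Named genes were all members, in full for the 8 highest and widest, the 5 lowest and narrowest, the unmarked ones and their paralogues. Words of 32 bases that occur elsewhere in the assembly were counted in windows of 1000 bp at each TSS. The promoter table held 36 of the 47 members. No test was made, since each pool gives 1 value. Members and lists were chosen with earlier results of these data known. The identity of paralogous proteins was not analysed here. The values of 1 marked member are not reported here, and the plots leave it out; counts and medians over the family include it.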

Additional observations from a re-analysis of the deposited data

How the results depend on the processing

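The alternatives were TSS windows of 0 and 2500 bp, TSSs of protein-coding transcripts only, peaks with a q-value of 0.01 or lower, the pooled list, each pool alone, joining gaps of 0 and 2500 bp, an overlap of 50% of the shorter peak and CpG windows of 500 bp. RefSeq starts, the width of the strongest single peak, leaving out members inside an exact repeat, and extents from the most downstream TSS were added after seeing the data. Medians and values of single members were compared with 1 SD of the values of pool E and pool F, and counts with a factor of 1.5. These limits are wide. The fall from 32 to 22 of 33 members with the longer side downstream stayed within the factor. Where a pool was left out, the SD came from the same pool values that were compared. Of 64 recomputed summaries 63 stayed within these limits. The exception was the median width, 2518 bp in the replicated list, which was 2263 bp without pool E (replicate 1) and 2545 bp without pool F (replicate 2). Of 734 values of single members, 671 moved by at most that SD and 63 moved more. A setting under which a member lost its mark gave no value to this count. The cause of the moves was not tested. Marking changed for Slc25a47, which was unmarked with TSSs of protein-coding transcripts or RefSeq starts, and for Slc25a21 in pool F with a window of 0 bp. Between 40 and 41 members were marked under all these alternatives. Of the 8 members with the highest signal value 6 remained among the 8 without pool E and 7 without pool F, and of the 8 widest 6 remained with a gap of 0 or 2500 bp. With CpG windows of 500 bp 25 members were high, 17 intermediate and 5 low. No paired analysis was possible because the technical libraries of a pool share 1 alignment and no list holds a value per library. Depth, animal-to-animal spread and the cells that carry the mark limit every value given. The identity of the paralogous proteins was planned and not run.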
